A study of Mus musculus with 12 samples.

Results

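Notch1, Notch2, Notch3, Notch4, Jag1, Jag2, Dll4, Hey1, Heyl and Hes1, the genes of 4 Notch receptors, 3 of their ligands and 3 of their target genes, were followed in veins of mice. They were picked by symbol, and all 10 were present among the 43346 genes of the deposited count table. The series held 12 RNA-seq libraries of vein taken 7 days after surgery, 6 from the jugular vein of mice labelled sham and 6 from the venous limb of the AVF of mice labelled AVF-CKD. AVF and CKD are left unexplained in the labels and are taken here to mean arteriovenous fistula (an artery joined by surgery to a vein) and chronic kidney disease. The sources used here give no strain, age, sex or method of inducing kidney disease, and do not state whether the sham mice had it. Vessel, surgery and disease model therefore cannot be told apart. Nothing in the labels ties each library to its own mouse, and the p-values therefore describe the spread between these samples, which may be technical.

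Notch receptors are single-pass membrane proteins that are activated by Jagged and Delta-like ligands on a neighbouring cell. Ligand binding opens the receptor to the protease Adam10 and then to gamma-secretase, and the released intracellular part joins the DNA-binding protein Rbpj to switch on genes of the Hes and Hey families of transcriptional repressors. In blood vessels, Notch1, Notch4 and Dll4 are known as endothelial genes, Notch3 and Heyl as genes of smooth muscle cells and pericytes (mural cells), and Jag1 as a ligand of both. Dll4 and Notch signalling take part in arterial identity and in the choice of sprouting cells, and the venous regulator Nr2f2 is known to hold Notch down in veins.

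Promoter sequences are shown for Notch2 and Notch4, the 2 members with the smallest p-values in the group comparison. They come from the RefSeq table of build GRCm38.p6, each covering 250 bases before to 50 bases after a start of the gene and read 5′ to 3′ on the gene's strand. The Notch2 window lay on the plus strand at chr3:98013288-98013587 and the Notch4 window on the plus strand at chr17:34564045-34564344. Capitals mark the GC box GGGCGG in the first sequence, and the ETS word AGGAAG and the AP-1 word TGAGTCA in the second, each on either strand.
Notch2: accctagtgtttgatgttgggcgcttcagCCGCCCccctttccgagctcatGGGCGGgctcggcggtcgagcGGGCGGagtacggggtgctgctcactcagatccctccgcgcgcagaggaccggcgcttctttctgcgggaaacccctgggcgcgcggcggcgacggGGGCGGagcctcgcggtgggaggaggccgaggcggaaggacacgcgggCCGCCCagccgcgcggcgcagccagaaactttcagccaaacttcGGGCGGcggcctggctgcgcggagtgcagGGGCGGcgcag
Notch4: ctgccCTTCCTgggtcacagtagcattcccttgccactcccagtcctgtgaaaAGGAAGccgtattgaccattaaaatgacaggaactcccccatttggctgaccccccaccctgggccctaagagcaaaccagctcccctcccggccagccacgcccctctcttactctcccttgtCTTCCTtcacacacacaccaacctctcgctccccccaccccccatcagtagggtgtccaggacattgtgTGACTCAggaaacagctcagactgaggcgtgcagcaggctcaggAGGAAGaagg
The Notch2 window held 7 GC boxes, no ETS word and no AP-1 word, and 73.0% of its bases were G or C. In the Notch4 window 58.3% were, and it held 4 ETS words, 1 AP-1 word and no GC box. Its AP-1 word overlapped none of the ETS words. Among all 32851 promoter windows of the table, 35.7% held a GC box, 35.4% the ETS word and 5.2% the AP-1 word.

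Windows were on file for 7 members, namely the 4 receptors, Jag1, Jag2 and Dll4. The GC box was in those of Notch1, Notch2, Notch3, Jag2 and Dll4, with 5, 7, 4, 5 and 2 matches, and 2 of the matches in Jag2 overlapped. The Notch1 window, at chr2:26503773-26504072 on the minus strand, lies inside the span of the gene in the deposited table, so it belongs to a start downstream of the outermost one at 26516663. The ETS and AP-1 words were in that of Notch4 alone. The window of Jag1 held none of the words searched. The RBPJ word GTGGGAA, present in 6.38% of all windows, and the E-box CACGTG, the kind of site that Hes and Hey proteins are known to bind, present in 7.15%, were in none of the 7. After these gave no match, 9 more words were searched, and the 3 in capitals were chosen for display once the matches were known. The other 6 were the RBPJ core TGGGAA (25.6% of all windows), the TATA box TATAAA (13.6%), CCAAT (37.4%), the GATA word GATAAG (7.44%), the SOX word AACAAT (10.7%) and the TCF word ACAAAG (18.7%). Of these, CCAAT was in the Dll4 window and GATAAG in the Notch3 window. A match describes the letters and is not a binding site.

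In GRCm38 the 4 receptor genes lie, by the coordinates of the deposited table, on chromosome 2 from 26457903 to 26516663 (Notch1, minus strand), chromosome 3 from 98013538 to 98150367 (Notch2, plus), chromosome 17 from 32120820 to 32166880 (Notch3, minus) and chromosome 17 from 34564268 to 34588503 (Notch4, plus). The ligand genes lie on chromosome 2 from 137081456 to 137116644 (Jag1, minus), chromosome 12 from 112908590 to 112929495 (Jag2, minus) and chromosome 2 from 119325784 to 119335962 (Dll4, plus). The targets lie on chromosome 3 from 8663359 to 8667256 (Hey1, minus), chromosome 4 from 123233556 to 123249875 (Heyl, plus) and chromosome 16 from 30064384 to 30067796 (Hes1, plus). The counts are sums over the exons of each gene, and every member is protein-coding in GENCODE M21. Other gene models overlapped 9.76% of the exonic bases of Notch1, 5.02% of Notch2, 6.03% of Notch3 and 5.56% of Dll4. For Notch1, Notch3 and Dll4 these models lie on the opposite strand, and their reads cannot be told apart in libraries that do not mark strand. The other 6 members had no such overlap.

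The libraries held 38653830 to 60142016 counts, and each member had between 280 and 5658 counts in each library. In the comparison over all genes, 0 of the 18965 genes tested (0%) passed an adjusted p below 0.05 in edgeR's quasi-likelihood test, while 1772 (9.34%) had an unadjusted p below 0.05, of which 998 (5.26%) were higher and 774 (4.08%) lower in AVF-CKD. DESeq2 called 81 of 19918 genes (0.407%, with 2216 genes or 7.33% at an unadjusted p below 0.05) and limma voom 0 (0%, with 2124 genes or 11.2%), and neither called a member. Markers of the vessel wall were present in every library. The summed level of 11 endothelial markers was 1520 to 2060 CPM (counts of a gene per 1000000 counts of the library) in sham and 1271 to 1913 CPM in AVF-CKD, and that of 12 smooth muscle and pericyte markers was 2034 to 3335 CPM and 1748 to 2817 CPM. Other tissue was carried along unevenly. The sum of 10 skeletal muscle markers ran from 511 to 14040 CPM in sham and from 934.7 to 13256 CPM in AVF-CKD, and that of 6 fat markers from 579.7 to 2465 CPM and from 433.7 to 937.7 CPM. The mean log2 level of the fat markers was lower in AVF-CKD (difference -0.97, two-sided exact permutation p = 0.0238), with 6 of 6 markers lower and 4 of them at an unadjusted p below 0.05 in edgeR's test. The highest fat level was in sham 6, which stood apart from the other sham libraries.

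The group means of the members lay within 0.41 of each other on the log2 scale, and the 10 genes divided evenly by direction, with 5 higher and 5 lower in AVF-CKD. Of the receptors, 3 of 4 were higher, of the ligands 2 of 3, and of the targets 0 of 3. The median log2 fold change (AVF-CKD minus sham) was 0.22 for the receptors, 0.17 for the ligands, -0.28 for the targets and 0.07 for all 10, against -0.002 for all genes tested. All 10 members passed the filter on low counts. Notch2 and Notch4 had an unadjusted p below 0.05 in edgeR's test, both higher in AVF-CKD. That is 2 of 10, against 5.26% of all genes in that direction and 9.34% in either. None passed the adjusted threshold, and in none were the CPM values of the groups without overlap, as they were for 0.638% of all genes. In these bulk samples, a difference in the number of cells of a type and a difference in RNA per cell cannot be told apart.

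**Figure D1:**
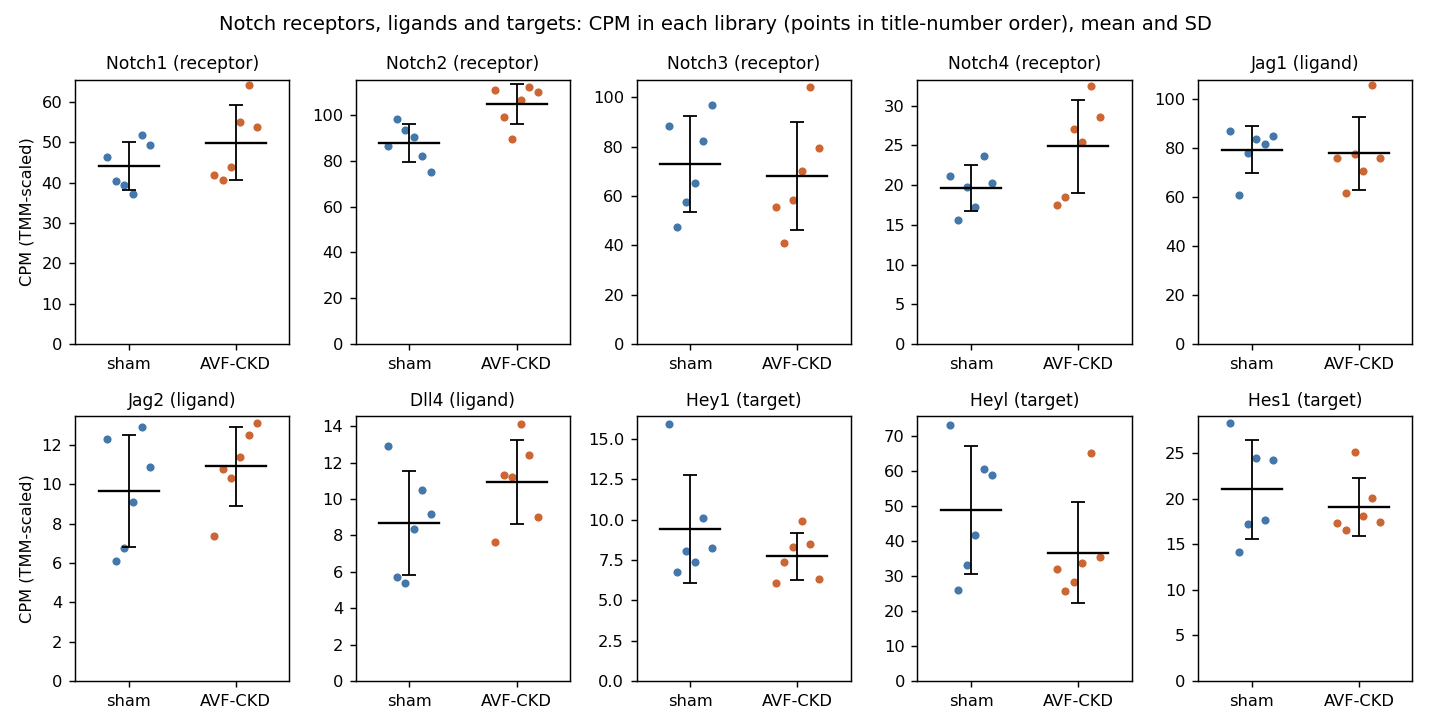
CPM (scaled by TMM, linear axis from 0) of each member in 6 sham and 6 AVF-CKD libraries; points are libraries in the order of their title numbers, lines are means and bars SD. Every pair of groups overlaps, and Notch2 comes closest to separation, with 5 of 6 AVF-CKD libraries above the highest sham library at 98.3 CPM.

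Notch2, a receptor expressed widely in mesenchymal, mural and myeloid cells, took the most reads of the members. Its level was 75.1 CPM in the lowest sham library, 88.4 CPM at the median and 98.3 CPM in the highest, against 89.6, 108.1 and 112.2 CPM in AVF-CKD. All but AVF-CKD 3 lay above every sham library. The sham mean was 87.6 CPM ± 8.3 and the AVF-CKD mean 104.7 CPM ± 8.76 (SD, n = 6 each), a fold change of 1.19 with a 95% interval of 1.06 to 1.34. The log2 fold change was 0.26 ± 0.079 (SE), with an unadjusted p of 0.00615 and an adjusted p of 0.407 in edgeR's quasi-likelihood test. By p-value it was number 281 of all genes. Its replicate spread was the narrowest of the members, with a coefficient of variation of 9.48% in sham and 8.37% in AVF-CKD. With skeletal muscle and fat marker scores as added terms the log2 fold change was 0.17 (edgeR, unadjusted p 0.147), and it was 0.11 among title numbers 1 to 3 and 0.41 among title numbers 4 to 6. Without sham 6, its lowest library and the one with the most fat marker RNA, it was 0.22 (edgeR, unadjusted p 0.0151).

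Notch4, a receptor largely limited to endothelial cells, ran from 15.6 CPM over a median of 20.1 to 23.7 CPM in sham, and from 17.5 over 26.2 to 32.4 CPM in AVF-CKD. AVF-CKD 3 to 6 stood above all sham libraries, while AVF-CKD 1 and 2 lay inside the sham range. The sham mean was 19.6 CPM ± 2.91 and the AVF-CKD mean 24.9 CPM ± 5.81 (SD, n = 6 each). The fold change of 1.27 had a 95% interval of 1.01 to 1.6, with an unadjusted p of 0.0453 and an adjusted p of 0.524 in edgeR's test. On the log2 scale it was 0.15 among title numbers 1 to 3 and 0.49 among title numbers 4 to 6. With 1 library left out at a time the unadjusted p was 0.05 or more in 9 of 12 fits, up to 0.115 without AVF-CKD 5, the highest library. With skeletal muscle and fat scores as terms it was 0.23 on the log2 scale (edgeR, unadjusted p 0.286), and with the smooth muscle and pericyte score as a term 0.53 (edgeR, unadjusted p 0.000204, adjusted p 0.39).

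Notch1, the main endothelial receptor and also one of leukocytes, ran from 37.1 CPM over a median of 43.4 to 51.7 CPM in sham. In AVF-CKD it ran from 40.7 over 48.8 to 64.1 CPM. AVF-CKD 1 to 3 lay between 40.7 and 43.9 CPM, and AVF-CKD 4 to 6, at 53.8 to 64.1 CPM, lay above every sham library. The log2 fold change was 0.18 ± 0.12 (SE) over all libraries, 0.002 among title numbers 1 to 3 and 0.33 among title numbers 4 to 6 (edgeR, adjusted p 0.688 over all libraries). Without AVF-CKD 5 it was 0.10.

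Notch3, the receptor of smooth muscle cells and pericytes, varied more than the other receptors. It ran from 47.3 CPM over a median of 73.8 to 97.1 CPM in sham and from 41.1 over 64.3 to 104.0 CPM in AVF-CKD, so that the lowest and the highest library were both AVF-CKD. The log2 fold change was -0.10 ± 0.22 (SE) with a 95% interval of -0.58 to 0.38 and an adjusted p of 0.92 in edgeR's test. Its direction was not stable, with 0.01 when AVF-CKD 2 was left out, -0.26 when AVF-CKD 5 was, and 0.23 with the mural score as a term.

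Jag1, the ligand mutated in Alagille syndrome, had 61.0 CPM in its lowest sham library, a median of 82.8 and a highest value of 87.1 CPM, against 61.6, 76.0 and 105.8 CPM in AVF-CKD. Apart from AVF-CKD 5 every AVF-CKD library was below the sham mean of 79.5 CPM, and the difference was -0.03 ± 0.12 (SE) on the log2 scale, with an interval of -0.29 to 0.24. It turned to 0.03 when AVF-CKD 2 was left out and was -0.14 without AVF-CKD 5. Jag2, a second Jagged ligand, ran from 6.08 over 9.98 to 12.9 CPM in sham and from 7.37 over 11.1 to 13.1 CPM in AVF-CKD. The log2 fold change of Jag2 was 0.17 ± 0.20 (SE, edgeR adjusted p 0.822). It was 0.07 without sham 2, 0.09 without sham 3, 0.26 without AVF-CKD 1 and 0.27 without sham 5.

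Dll4, the Delta-like ligand of arterial and sprouting endothelium, ran from 5.37 CPM over a median of 8.76 to 12.9 CPM in sham and from 7.62 over 11.2 to 14.1 CPM in AVF-CKD. The sham libraries 2 and 3 were the lowest of all 12, at 5.72 and 5.37 CPM, and AVF-CKD 4 was the highest. Sham averaged 8.66 CPM ± 2.86 and AVF-CKD 10.9 CPM ± 2.31 (SD, n = 6 each), a log2 fold change of 0.34 ± 0.22 (SE) with an adjusted p of 0.663 in edgeR's test. Its fold change of 1.26 was close to that of Notch4, with a wider interval of 0.913 to 1.74. The log2 value was 0.22 without sham 3 and 0.48 without sham 1.

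Heyl, a Hey-family repressor of mural cells and the member with the largest fold change, had 25.9 CPM in its lowest sham library, a median of 50.3 and a highest value of 73.1 CPM. In AVF-CKD the values were 25.6, 32.8 and 65.2 CPM. AVF-CKD 5 was high, and the other 5 AVF-CKD libraries, at 25.6 to 35.4 CPM, were below the sham mean of 48.9 CPM. The log2 fold change was -0.41 ± 0.27 (SE), with an unadjusted p of 0.154 and an adjusted p of 0.674 in edgeR's test. Among the members its 95% interval of the fold, 0.498 to 1.13, was the only one to reach past a 2-fold difference. Without AVF-CKD 5 it was -0.66 (edgeR, unadjusted p 0.0165, adjusted p at least 0.387 over all alternatives), and without sham 1 it was -0.26. With the smooth muscle and pericyte score as a term it was -0.01. It was -0.62 among title numbers 1 to 3 and -0.27 among title numbers 4 to 6.

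Hey1, the related repressor of arterial endothelium, stood at 6.75, 8.17 and 15.9 CPM as lowest, median and highest sham value, and at 6.05, 7.81 and 9.89 CPM in AVF-CKD. Sham 1 was far above the rest. The log2 fold change was -0.28 ± 0.20 (SE, edgeR adjusted p 0.702) over all libraries and -0.07 without sham 1. It was -0.51 among title numbers 1 to 3 and -0.06 among title numbers 4 to 6. Hes1, a repressor of many cell types that also answers to signals other than Notch, had 14.1, 21.0 and 28.3 CPM in sham and 16.5, 17.8 and 25.1 CPM in AVF-CKD. Its AVF-CKD values lay inside the sham range, with 5 of 6 below the sham mean, and the log2 fold change was -0.14 ± 0.17 (SE, edgeR adjusted p 0.836). It was -0.03 without sham 1, -0.09 without sham 4 or sham 6, and -0.23 without sham 2 or AVF-CKD 3.

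**Figure D2:**
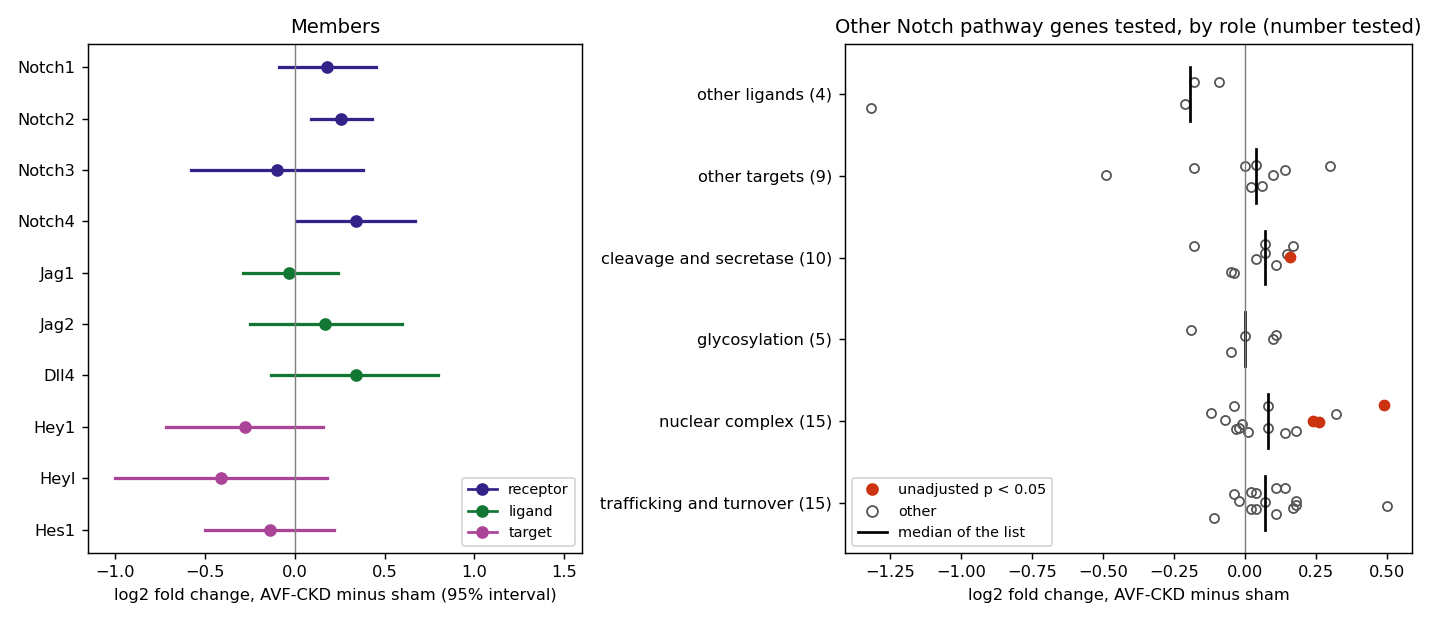
Left, log2 fold change (AVF-CKD minus sham) of the 10 members with the 95% interval, coloured by role; right, the log2 fold change of each of 58 other Notch pathway genes by role, with filled points for an unadjusted p below 0.05 and a line at the median of the list. The intervals of Notch2 (0.09 to 0.43) and Notch4 (0.01 to 0.67) lie above 0, and the 3 targets lie below 0 with intervals that include it.

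Divided by gene length, the members formed a high and a low tier. Jag1 was at the top with 13.5 CPM per kb and was above the next gene, Hes1, in 12 of 12 libraries. Hes1 (9.84 CPM per kb), Notch2 (9.15), Notch3 (8.77) and Heyl (8.37) followed at like levels, each ahead of the next in 5, 8 and 9 of 12 libraries, so their order is not set beyond the spread. Heyl was above the next gene, Notch1, in 12 of 12 libraries. Notch1, at 3.3 CPM per kb, was above Notch4 in 11 of 12. Notch4 (2.76), Hey1 (2.62), Dll4 (2.54) and Jag2 (2.54) lay close together, and their order differed between the groups. Notch4 was above Hey1 in 0 of 6 sham and 6 of 6 AVF-CKD libraries, and Hey1 was above Dll4 in 6 of 6 sham and 0 of 6 AVF-CKD libraries. These are the 2 pairs described below as picked from 45 for their separation, and they carry no test. Of all genes, 0.759% separated the groups against Notch4 and 0.169% against Dll4. Where genes cross depends on the lengths used. Without division by length, Hey1 minus Dll4 ran from -0.18 to 0.58 in sham on the log2 scale. Dll4 was above Jag2 in 1 of 6 sham and 5 of 6 AVF-CKD libraries. Hey1 was number 7 by per-length level in sham and number 10 in AVF-CKD. Notch2 was the fifth by per-length level in sham, at 8.34 CPM per kb, and the second in AVF-CKD, at 9.96 CPM per kb. The length of Jag2 in the table, 4054 bases, is below the 6965 exonic bases of GENCODE M21, so its per-length level would be lower on the longer model.

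The make-up of the receptors and ligands was compared as shares of the summed per-length level. Notch3 held 39.0% ± 6.8 (SD) of the receptors in sham and 33.2% ± 4.81 in AVF-CKD, Notch2 36.9% ± 7.05 and 40.5% ± 5.65, Notch1 13.5% ± 0.937 and 14% ± 0.676, and Notch4 10.6% ± 0.944 and 12.3% ± 1.76 (n = 6 each). Of the ligands, Jag1 held 75.1% ± 4.41 and 70.6% ± 4.85, Dll4 12.1% ± 2.45 and 15.1% ± 3.2, and Jag2 12.8% ± 2.16 and 14.3% ± 2.48. The smallest p was that of the Notch4 share (p = 0.0606 by a two-sided exact permutation test, 0.223 when adjusted over the 7 shares), and no share passed the threshold. The share of Notch1 ran only from 12.1% to 15% over the libraries, while that of Notch2 ran from 28.4% to 47.9%.

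Because vessel wall markers were lower on average in AVF-CKD, the members were also set against them. The mean log2 level of the endothelial markers differed by -0.18 (AVF-CKD minus sham, two-sided exact permutation p = 0.154), that of the mural markers by -0.25 (p = 0.167 by the same exact test), and 10 of 11 and 10 of 12 of these markers had a negative log2 fold change. On the log2 scale, Notch4 stood below the endothelial markers by -2.50 ± 0.15 (SD, n = 6) in sham and by -2.0 ± 0.21 (SD, n = 6) in AVF-CKD. The sham libraries ran from -2.71 to -2.25 and the AVF-CKD libraries from -2.25 to -1.77, so the groups touched without overlap at sham 5 and AVF-CKD 1. The difference of 0.50 had a two-sided exact permutation p of 0.00216, the smallest that 924 assignments can give, and an adjusted p of 0.5 over all genes. Relative to these markers 36 genes (0.19%) had every AVF-CKD library above every sham library, and the median difference of all genes was 0.181. Markers of arterial endothelium had 4 of 6 genes higher in AVF-CKD (median log2 fold change 0.20) and those of venous endothelium 1 of 4 (median -0.17), with 0 of either at an unadjusted p below 0.05 in edgeR's test. Leaving out the 4 endothelial markers with an unadjusted p below 0.05 gave a difference of 0.44.

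Against the smooth muscle and pericyte markers Notch4 differed by 0.57 and again did not overlap, with -2.80 to -2.33 among sham and -2.15 to -1.83 among AVF-CKD libraries (two-sided exact permutation p = 0.00216, adjusted p = 0.44 over all genes). With the median in place of the mean of these markers the difference was 0.42 (exact permutation p = 0.0173). Separation on the mean was found for 46 genes (0.243%), and the median difference of all genes was 0.243. Notch1, Notch2 and Dll4 were higher relative to the endothelial markers by 0.36, 0.44 and 0.56, with exact permutation p-values of 0.0173, 0.0303 and 0.0368, where 9.22% of all genes had a p below 0.05 in that direction. Relative to the mural markers the differences of Notch1, Dll4, Jag2, Notch2 and Jag1 were 0.42, 0.62, 0.45, 0.50 and 0.21 (exact permutation p = 0.00433, 0.0108, 0.0173, 0.0346 and 0.0411, against 10.9% of all genes). With the median of the mural markers these were 0.27, 0.48, 0.31, 0.36 and 0.06 (exact permutation p = 0.0325, 0.0541, 0.0952, 0.0931 and 0.582), so that Notch1 alone of the 5 stayed below 0.05. None of these passed an adjustment over all genes, which called 0 of 18965 (0%) on either reference. Notch3, Hes1 and Hey1 differed by -0.06 to 0.14 on the 2 references and Heyl by -0.21 and -0.15.

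**Figure D3:**
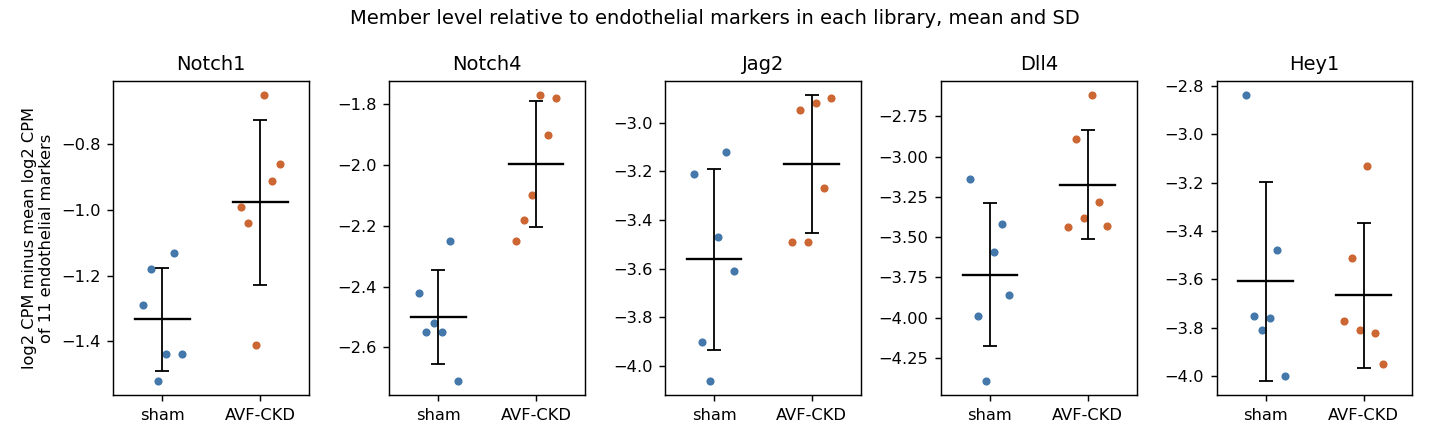
Log2 CPM of 5 members minus the mean log2 CPM of 11 endothelial markers in each library, with mean and SD of 6 sham and 6 AVF-CKD libraries; each panel has its own axis. Notch4 is the panel without overlap, from -2.71 to -2.25 in sham and from -2.25 to -1.77 in AVF-CKD, whereas the Hey1 points of the 2 groups overlap.

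Ratios between members do not depend on the scaling of libraries. Of the 45 pairs of members, 2 had groups without overlap, and both held Hey1. The log2 level of Hey1 minus that of Dll4 was 0.12 ± 0.30 (SD, n = 6) in sham and -0.49 ± 0.10 (SD, n = 6) in AVF-CKD, with ranges of -0.18 to 0.58 and -0.62 to -0.33. Hey1 thus stood above Dll4 on average in sham and below it in every AVF-CKD library. Of all genes, 0.169% separated the groups in this way against Dll4. Hey1 minus Notch4 was -1.11 ± 0.34 in sham and -1.67 ± 0.33 in AVF-CKD, with ranges of -1.30 to -0.42 and -2.17 to -1.33. Against Notch4, 0.759% of all genes did so. All 32 genes that separated against Dll4 and all 144 against Notch4 lay lower in AVF-CKD on that ratio. The CPM of Hey1 itself overlapped between the groups. A rate for pairs of genes at large was not computed. These 2 pairs were picked from the 45 for their separation and carry no test.

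**Figure D4:**
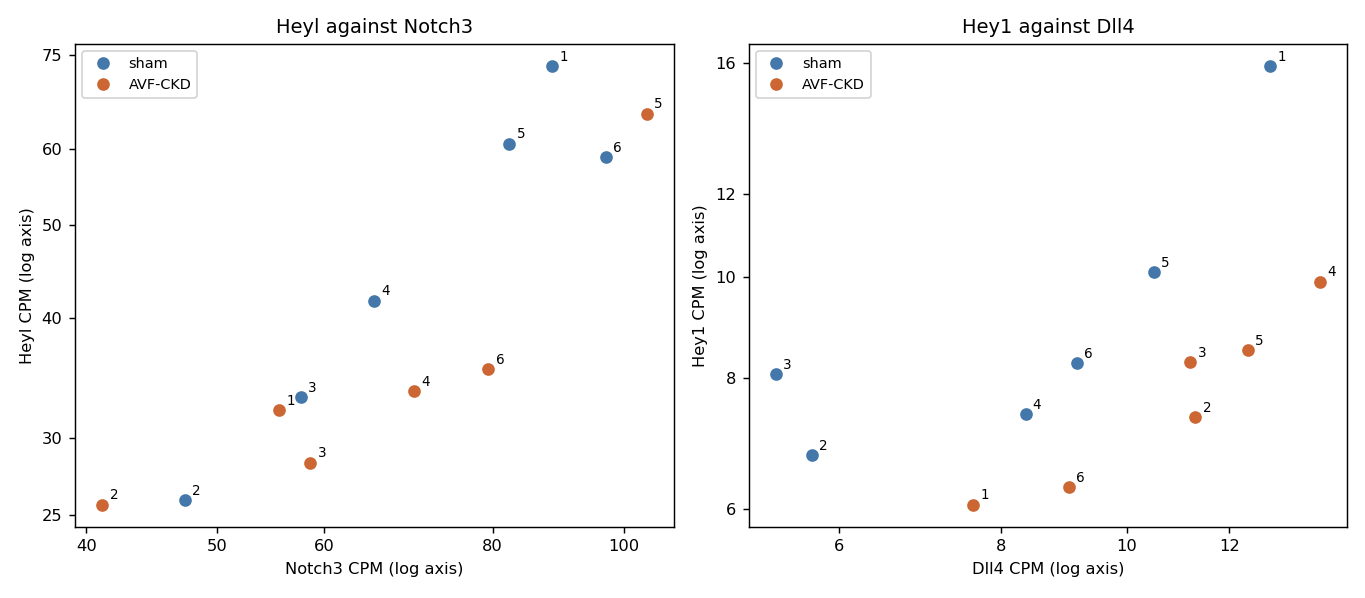
CPM of Heyl against Notch3 (left) and of Hey1 against Dll4 (right) in 12 libraries, both axes logarithmic, with the title number beside each point. Heyl follows Notch3 in both groups (r = 0.96 in sham and 0.90 in AVF-CKD), while the AVF-CKD points of the right panel run along a line of their own below the sham points (r = 0.80 and 0.96).

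Across libraries Notch3, Heyl and Jag1 went together and with the mural markers. Of 85 relations computed (45 pairs of members and each member with 4 marker scores), 8 had an adjusted p of Pearson's r below 0.05. The closest was that of Notch3 with Heyl, r = 0.89 (permutation p = 0.00011, adjusted 0.00623) and rho = 0.92 (permutation p = 7e-05, adjusted 0.00595). It was 0.96 within sham, 0.90 within AVF-CKD and 0.86 without the 2 libraries farthest from the median of Notch3. The smooth muscle and pericyte score went with both, with r = 0.88 for Notch3 and 0.88 for Heyl (rho 0.87 and 0.85, permutation p = 0.00022 and 0.00018 for r and 0.00036 and 0.00073 for rho, adjusted p of r 0.00623 for both). With the endothelial score r was 0.70 for Notch3 and 0.68 for Heyl (rho 0.71 and 0.59, permutation p of r 0.0134 and 0.0182, adjusted 0.0852 and 0.103). Libraries high in Notch3 were high in mural markers, and the part of tissue composition in these relations was not tested.

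Jag1 belonged to the same group. It had r = 0.85 with Notch3, 0.82 with Heyl and 0.79 with the mural score (rho 0.79, 0.85 and 0.80; permutation p of r 0.00044, 0.0003 and 0.00139, of rho 0.00338, 0.00068 and 0.00244; adjusted p of r 0.00748, 0.00637 and 0.0148). With the endothelial score Jag1 had r = 0.72 and rho = 0.78 (permutation p = 0.0059 and 0.00374, adjusted 0.0501 and 0.0339). Within groups the first 3 relations were 0.81 to 0.92, and without the 2 farthest libraries 0.71, 0.78 and 0.80. Notch1 and Notch4 had r = 0.85 and rho = 0.85 (permutation p = 0.00064 and 0.00093, adjusted 0.00907 and 0.0158), 0.79 within sham, 0.84 within AVF-CKD and 0.74 without AVF-CKD 4 and 5. Their r with the endothelial score was 0.31 and 0.39 (rho 0.26 and 0.45, adjusted permutation p of r 0.504 and 0.356), and with the mural score 0.51 and 0.45 (rho 0.38 and 0.41, adjusted 0.222 and 0.299). Within each group these values were higher. For Notch1, r with the endothelial score was 0.64 in sham and 0.51 in AVF-CKD, and with the mural score 0.71 and 0.84. For Notch4 it was 0.72 and 0.82 with the endothelial score, and 0.71 and 0.93 with the mural score. Jag2 and Dll4 had r = 0.85 (permutation p = 0.00084, adjusted 0.0102) but rho = 0.63 (permutation p = 0.0318, adjusted 0.114). That relation rested on sham 2 and 3, without which r was 0.61, and it was 0.95 within sham and 0.58 within AVF-CKD. By rho, Jag2 also went with Notch1 (0.83, adjusted permutation p 0.0207) and Notch4 (0.78, adjusted 0.0339). Pearson's r of these 2 pairs was 0.71 and 0.73 (adjusted permutation p 0.0679 and 0.0591).

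Dll4 and Hey1 were closer within the groups than over all libraries, with r = 0.80 among sham and 0.96 among AVF-CKD libraries (exact permutation p = 0.0417 and 0.00278) against 0.56 pooled (rho 0.69, permutation p = 0.0572 and 0.0159, adjusted 0.172 and 0.0903). The within-group p-values of this paragraph are unadjusted, where 85 relations were computed in each group. Notch2 ran differently from the other receptors. Its r with Notch1, Notch3 and Notch4 was 0.24, -0.22 and 0.24 over all libraries (rho 0.22, -0.22 and 0.16, adjusted permutation p of r 0.578, 0.603 and 0.578). With Notch3 it was -0.93 within sham and 0.55 within AVF-CKD (exact permutation p = 0.00972 and 0.287). With the endothelial score it was -0.63 over all libraries (rho -0.50, permutation p = 0.0313 and 0.0982, adjusted 0.136 and 0.238), -0.87 within sham and -0.21 within AVF-CKD.

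A macrophage score of 5 markers was added after these values were seen, as a further family of 10 relations. Notch3 and Heyl each had r = -0.89 with it (rho -0.94 and -0.87, permutation p of r 0.00013 and 0.00012, adjusted 0.00065 for both), and Jag1 had -0.69 (rho -0.78, permutation p = 0.0106, adjusted 0.0355). Within sham and within AVF-CKD these were -0.96 and -0.91 for Notch3, -0.92 and -0.81 for Heyl and -0.74 and -0.77 for Jag1. The other members save Notch2 were also negative over all libraries, from -0.38 (Notch4 and Dll4) to -0.66 (Hes1). Within the groups r was -0.71 and -0.90 for Notch1, -0.62 and -0.95 for Notch4 and -0.83 and -0.78 for Jag2. For Dll4, Hey1 and Hes1 it was -0.84 and -0.35, -0.68 and -0.29, and -0.80 and -0.31. By rho, Jag2 (-0.66) and Hes1 (-0.71) also had an adjusted permutation p below 0.05 (0.045 and 0.0313). Notch2 was the only member with a positive r, 0.53 (rho 0.48, permutation p = 0.076 and 0.121, adjusted 0.109 and 0.135), with 0.85 within sham and -0.31 within AVF-CKD. The summed macrophage markers ran from 4949 to 9795 CPM in sham and from 5228 to 9891 CPM in AVF-CKD.

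**Figure D5:**
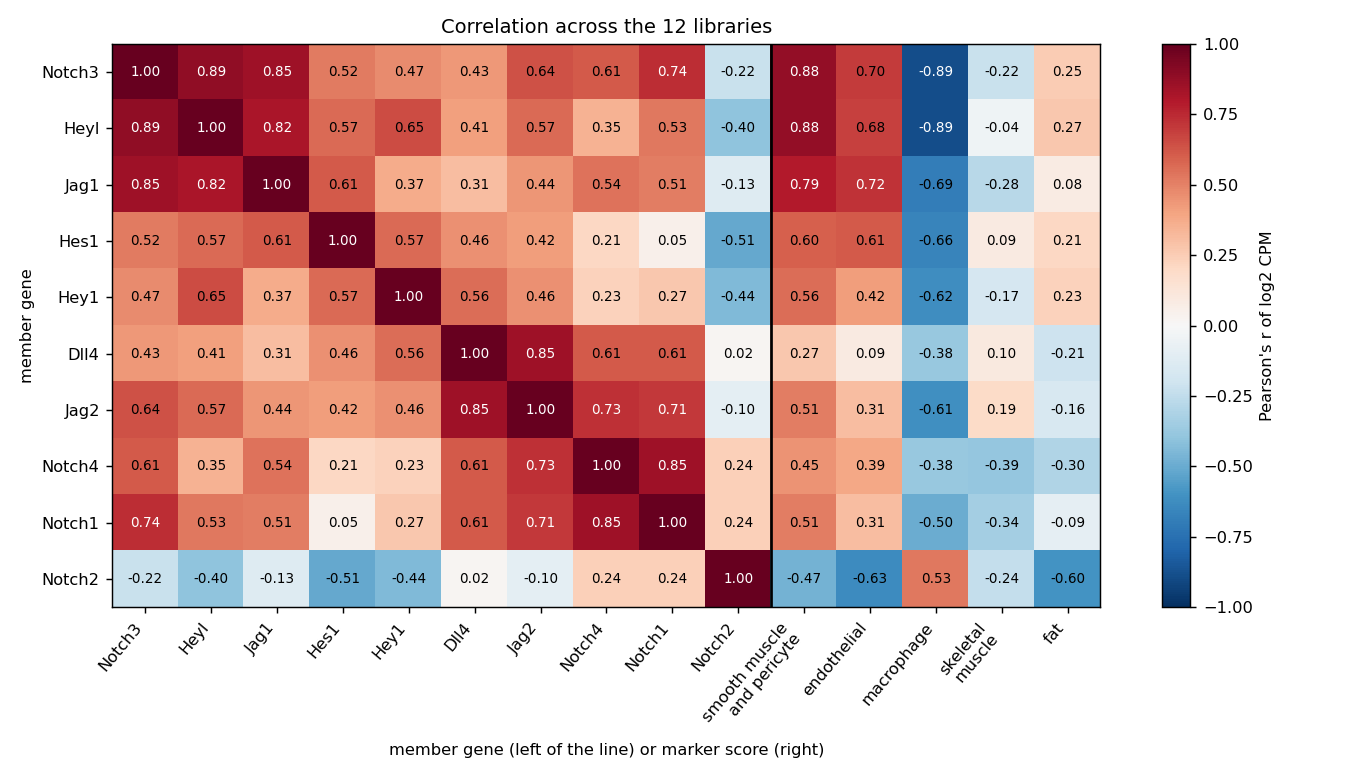
Pearson's r of log2 CPM across 12 libraries between members (left of the black line) and between members and marker scores (right), on a scale from -1 to 1. Notch3, Heyl and Jag1 form a block with r of 0.82 to 0.89 among themselves and 0.79 to 0.88 with the smooth muscle and pericyte score, and Notch2 is the row with mostly negative values.

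For each member the genes with the most similar profile were found among all genes tested, by Pearson's r of log2 CPM over the 12 libraries after removal of the group means. For Notch1 they were Cdc42bpb (0.95), Cmtm4 (0.94) and Adcy6 (0.94), for Notch2 Zfp217 (0.94), Camkk2 (0.93) and Stkld1 (0.92), for Notch3 Myo1d, Plxnb1 and Dab2ip (0.96 each), and for Notch4 Luzp1 (0.95), Pcdh1 (0.94) and Fam65a (0.92). Among the ligands, Jag1 was nearest to Wdr47 (0.92), Klhl4 (0.91) and Mecom (0.90), Jag2 to Smtn and Sema3g (0.92 each), and Dll4 to N4bp3 (0.95), Prnd (0.93) and Vwa1 (0.92). Smtn is a smooth muscle gene and one of the mural markers. Among the targets, Hey1 was nearest to Gja4 (0.93), which encodes an arterial gap junction protein, then Foxd2 (0.90) and Nsmf (0.87), Heyl to Gal3st1 (0.94), Plxnb1 (0.92) and Zbed3 (0.92), and Hes1 to Plk2 (0.95), Fam19a5 (0.87) and Sncaip (0.86). Plxnb1 was in the lists of both Notch3 and Heyl. By the same measure Notch3 was number 4 for Heyl, with r = 0.91, and Dll4 number 7 for Hey1, with r = 0.84. Stkld1 and Gal3st1 were weakly expressed, at 0.49 and 0.512 CPM.

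A list of 64 other genes of the pathway was read in the same fit, and 58 passed the filter on low counts. Of these, 36 (62.1%) were higher and 22 lower in AVF-CKD, where 49.1% of all genes tested were higher. The median log2 fold change was 0.04, and 0 of the pathway genes passed the adjusted threshold in edgeR, DESeq2 or limma voom. At an unadjusted p below 0.05 in edgeR's test there were 4 of 58, all higher in AVF-CKD. The share of all genes was 5.26% in that direction and 9.34% in either. DESeq2 had 5 and voom 4 in either direction, against 7.33% and 11.2% of all genes. Ncstn, a subunit of gamma-secretase, ran from 98.6 over 105.5 to 108.8 CPM in sham and from 110.6 over 118.0 to 122.2 CPM in AVF-CKD. The groups did not overlap, as was so for 0.638% of all genes. The log2 fold change was small, 0.16 ± 0.05 (SE, edgeR, unadjusted p 0.00782, adjusted p 0.41). Rbpj, the DNA-binding partner of the receptors, had a sham mean of 125.0 CPM ± 17.3 and an AVF-CKD mean of 149.4 CPM ± 18.2 (SD, n = 6 each), with overlap (log2 fold change 0.26 ± 0.11, SE). The coactivator Ep300 averaged 57.3 and 67.6 CPM and the corepressor Spen 23.7 and 33.3 CPM, with log2 fold changes of 0.24 ± 0.10 (SE) and 0.49 ± 0.22 (SE). Spen stood at 37.0 to 51.3 CPM in AVF-CKD 4 to 6 and at 20.7 to 23.5 CPM in AVF-CKD 1 to 3, which lay inside the sham range of 20.6 to 27.6 CPM. Adjusted p-values of Rbpj, Ep300 and Spen in edgeR's test were 0.5, 0.498 and 0.527.

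By role, the 10 genes of receptor cleavage and gamma-secretase had 7 members higher and a median of 0.07, the 15 of the nuclear complex 9 and 0.08, the 15 of trafficking and turnover 12 and 0.07, the 5 of receptor glycosylation 2 and -0.003, the 9 other targets tested 6 and 0.04, and the 4 other ligands tested 0 and -0.20. The most abundant gene of each list, by its mean over all libraries, was Adam10, the protease of the first cut (sham mean 151.0 CPM, AVF-CKD mean 168.0 CPM), Ctbp1, a corepressor (155.2 and 153.5), Dtx3, of the Deltex family (95 and 87.8, where Mib1, a ubiquitin ligase for the ligands, had 87.4 and 94.6), Pofut1, which puts fucose on the receptors (60.6 and 65.1), Efnb2, the arterial ephrin (25.2 and 27.7), and Egfl7, a secreted endothelial protein (126.8 and 112.0). Named here after its values were seen, Hey2 had a mean of 7.34 CPM among sham and 5.22 CPM among AVF-CKD libraries (log2 fold change -0.49 ± 0.27, SE, edgeR adjusted p 0.597). It is the other Hey-family repressor, and like Hey1 and Heyl it had 5 of 6 AVF-CKD libraries below the sham mean. Jag1 and Hes1, outside that family, had the same split. Sham 1 was the highest sham library for Hey2, at 11.3 CPM, as it was for Hey1 and Heyl, which raised these sham means. How many of all genes had such a split was not counted. The other targets Nrarp, Hes6 and Efnb2 had log2 fold changes of 0.02, 0.10 and 0.14. Dlk1, a non-canonical ligand also named after its values were seen, differed by -1.32 ± 0.62 (SE, edgeR adjusted p 0.54), and its sham libraries ran from 2.65 to 99.3 CPM, with sham 5 far above the rest. Not tested for low counts were Dll3, Dner, Hes2, Hes3, Hes5 and Ptcra.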

How the data were processed

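Vein RNA was extracted with trizol and a Qiagen kit and prepared with the TruSeq RNA kit v2, per the labels' protocols; this kit does not mark strand. The submitters' processing notes name GRCm38, TopHat2 2.1.0, featureCounts and edgeR. Which annotation release, strand setting and read filters were used is not given in the sources used here. Per gene, the authors deposited whole-number counts for 12 libraries in 1 table, with 0 columns of another series. The deposited RPKM values, which use a library total of 1.15 to 1.19 times the count sum, were not used.

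Counts were filtered with filterByExpr, scaled with TMM (factors 0.97 to 1.03) and fitted in edgeR 4.0.16 (R 4.3.3), with its quasi-likelihood F-test on all 18965 genes, AVF-CKD against sham, with Benjamini-Hochberg adjustment and a threshold of 0.05. The biological coefficient of variation was 24.2%. CPM uses TMM-scaled totals, and log2 CPM a prior count of 2. The SE is the log2 fold change over the root of F. The steps were tested on simulated data. DESeq2 1.42.0, limma 3.58.1 voom, other scalings and filters, added terms and leaving out each library were alternatives. In the 66 pairs of libraries, chi-square was 44.4 to 197 per degree of freedom, so none looked like a repeat deposit. Correlations used 100000 permutations.

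The members, gene lists, markers and tests were chosen with earlier results of these data known. Named were all members, pathway genes with an unadjusted p below 0.05, the most abundant gene of each role list, and the 3 genes most like each member, of which 1 is not reported here; the most abundant genes of the marker lists, also in that rule, are summarised by their lists. Hey2, Dlk1 and the pairs with Hey1 were named after their values were seen. Levels relative to markers were to be adjusted over 20 values. On that plan 3 passed (Notch4 on both references, Notch1 on mural markers). Since the members were chosen with results known, the adjustment was then made over all genes, and none passed. Of the table's identifiers, 42462 were found in GENCODE M21. The gene Adgre1 was matched by its identifier.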

Additional observations from a re-analysis of the deposited data

Results flagged for a closer look

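Libraries that stood apart from the rest of their group were looked for in the CPM of each member, in 20 groups of 6, by the gap of the highest or lowest library to its neighbour divided by the range of the group, with Dixon's 95% limit. Chance flags about 1 in 20 groups, and 4 were found. The highest AVF-CKD library, AVF-CKD 5, stood apart for Heyl at 65.2 CPM (gap over range 0.753) and for Jag1 at 105.8 CPM (0.635). It was also the highest AVF-CKD library for Notch3, at 104.0 CPM, and its mural score was the highest of its group, at 7.14 on the log2 scale. Sham 2 was low for Jag1 at 61.0 CPM (0.664), and its mural score was the lowest sham value, 6.51. Sham 1 was high for Hey1 at 15.9 CPM (0.636), and it was also the highest sham library for Heyl, Dll4 and Hes1. The part of tissue composition in these values was not tested.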

How the results depend on the processing

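No member and no other pathway gene was called at an adjusted p below 0.05 under any of the 25 alternatives to the edgeR fit, and no share and no level relative to markers passed under theirs. With 0 calls these counts could not fall, so they say nothing of stability. Notch1, Notch2, Notch4, Jag2, Dll4, Hey1 and Heyl kept their direction in all 25. Signs turned as follows. Among title numbers 4 to 6 only, Notch3 was 0.05 and Jag1 0.01 on the log2 scale. With the mural score as a term Notch3 was 0.23, Jag1 0.12 and Hes1 0.04. With 1 library left out at a time Notch3 ran from -0.26 to 0.01 and Jag1 from -0.14 to 0.03. With the median of a marker list, Notch3 relative to mural markers was -0.02, Hes1 -0.01 and Hey1 -0.14, and Hey1 relative to endothelial markers 0.05. With 1 library left out, Hey1 ran from -0.16 to 0.10 on endothelial and from -0.09 to 0.11 on mural markers, and Notch3 from -0.004 to 0.16 on endothelial markers. The cause was not tested. Without 1 library, the unadjusted edgeR p of Notch2 ran from 0.0017 to 0.0159 and that of Notch4 from 0.0119 to 0.115, the latter with 9 of 12 at 0.05 or more.

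With the title number as a replicate block 0 members and 0 pathway genes were called. In that edgeR fit 3 members had an unadjusted p below 0.05, and so did 2058 of all 18965 genes. Without the block it was 2 members and 1772 genes. Of the 3, Notch2 and Notch4 were higher in AVF-CKD, and Heyl was lower (log2 fold change -0.39, edgeR, unadjusted p 0.0429). No pairing of libraries by title number was visible, and the labels do not say whether the numbers pair animals. Deviations of same-numbered libraries correlated at -0.03, 0.24, 0.28, -0.11, -0.10 and 0.14, and 3 of 12 libraries correlated best with their own number. With 6 libraries a group and a coefficient of variation of up to 39.2% (Heyl), the 95% intervals of 9 of the 10 members lay within a 2-fold difference, against 86.7% of all genes tested.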
